A study of Mus musculus with 11 samples.

Results

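The 7 genes Hmcn1, Hmcn2, Lrp1, Akap9, Pclo, Dnah9 and Huwe1, all of very long coding sequence, were followed through the listed exome variants of mouse pancreatic ductal adenocarcinomas. They were taken by gene symbol from a deposited table of protein-altering variants and were chosen by having at least 1 record there, so their presence in the table is not a result. They made up 7 of the 558 listed genes and 28 of the 739 records (3.79%). A record is 1 variant in 1 tumour, with its reads. The study asked how listed variants differed between tumours with and without floxed Trp53.

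The 4 KPT tumours came from mice with Trp53fl/fl, floxed alleles of the p53 tumour suppressor gene, on top of the alleles of the KT mice. The 7 KT tumours came from mice with those common alleles alone, among them Rosa26LSL-tdTomato/LSL-tdTomato, a fluorescent reporter. In both groups the recombinase came from Ptf1aCreER, which tamoxifen activates in acinar cells, so cells outside that lineage kept the alleles unswitched. All mice received 5 mg tamoxifen by mouth on 3 days from 8 to 10 weeks of age and were aged until morbid, so age at collection was not fixed. Each tumour is a separate library, and no normal tissue was used here. The labels number the tumours but do not say that each came from its own animal, so p-values measure the spread between these samples.

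A long coding sequence offers more bases at which a change can fall, so very large genes collect variants in tumours whether or not the change matters to the cell, and they are often read as a control for that. The genes do unrelated work. Hmcn1 and Hmcn2 encode hemicentins, extracellular matrix proteins built of many immunoglobulin-like domains. Lrp1 encodes an endocytic receptor of the LDL receptor family. Akap9 encodes a scaffold that anchors protein kinase A at the Golgi and centrosome, and Pclo encodes piccolo, a scaffold of the presynaptic active zone. Dnah9 encodes an axonemal dynein heavy chain of motile cilia, and the X-linked Huwe1 encodes a HECT-type ubiquitin ligase.

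Gene size was checked as far as the tables went. The RefSeq spans of the 7 genes ran from 83.0 kb for Lrp1 to 431 kb for Hmcn1, and all 7 exceeded 65.9 kb, the upper quartile of the listed genes. The annotated transcript had 107 exons in Hmcn1, 98 in Hmcn2, 89 in Lrp1, 83 in Huwe1, 69 in Dnah9, 48 in Akap9 and 25 in Pclo, against a median of 10 over the listed genes. The last residue with a record was 4774 in Hmcn1, 4382 in Lrp1 and 4350 in Hmcn2, which sets a lower limit on protein length. Whether any of these changes is a passenger was not measured: the table held no silent variants, and the authors' deposited table marks Hmcn1 and Huwe1 as tumour suppressor genes. Over all records, 15 of 739 carried that mark, in 10 of the 558 listed genes. Hmcn1 and Huwe1 held 5 of these 15, of which 4 were the Hmcn1 records of KPT tumour 2 and 1 was the Huwe1 record of KT tumour 1. The count thus rests mostly on 1 gene in 1 tumour, and it was not tested.

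The codons are shown for the genes with several records in 1 tumour, as the table gives them, with the changed base in capitals. Codons are read along the coding strand, and residues count from the first of the protein. The set begins with the 4 changes of Hmcn1 in KPT tumour 2, goes on with the 8 of Hmcn2 in KT tumour 1 and ends with the 10 of Akap9 and Pclo in KT tumour 5.
Hmcn1 S749G: Agt/Ggt
Hmcn1 A2163P: Gct/Cct
Hmcn1 R2546Q: cGa/cAa
Hmcn1 G4774R: Gga/Aga
Hmcn2 A1517V: gCc/gTc
Hmcn2 T1840A: Acc/Gcc
Hmcn2 V1930A: gTg/gCg
Hmcn2 E2146Q: Gag/Cag
Hmcn2 V3243I: Gta/Ata
Hmcn2 L3291P: cTg/cCg
Hmcn2 A3516T: Gcc/Acc
Hmcn2 Q4350R: cAg/cGg
Akap9 F1119V: Ttt/Gtt
Akap9 Q1138K: Cag/Aag
Akap9 S1277N: aGc/aAc
Akap9 T1309I: aCt/aTt
Akap9 S1311C: tCt/tGt
Akap9 C1353Y: tGt/tAt
Akap9 S2370L: tCa/tTa
Pclo Q1050E: Cag/Gag
Pclo L2297S: tTg/tCg
Pclo E2855D: gaA/gaT

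Records of the 7 genes were present in 5 of the 11 tumours, 3 KPT and 2 KT. The 6 KPT records comprised 4 in tumour 2, 1 in tumour 3 and 1 in tumour 4, with 0 in tumour 1. The 22 KT records comprised 12 in tumour 1 and 10 in tumour 5, with 0 in tumours 2, 3, 4, 6 and 7. The groups overlapped, at 1.5 ± 1.73 records per KPT tumour (SD, n = 4) and 3.14 ± 5.40 per KT tumour (SD, n = 7). The 28 records fell to 16 without KT tumour 1 and to 18 without KT tumour 5. KT tumours 3 and 4 had 92 and 79 records in other genes and 0 in these 7. KPT tumour 1 and KT tumours 2, 6 and 7 had only 19, 13, 6 and 3 records in all genes. With so few records, a count of 0 there says little about these 7 genes.

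**Figure D1:**
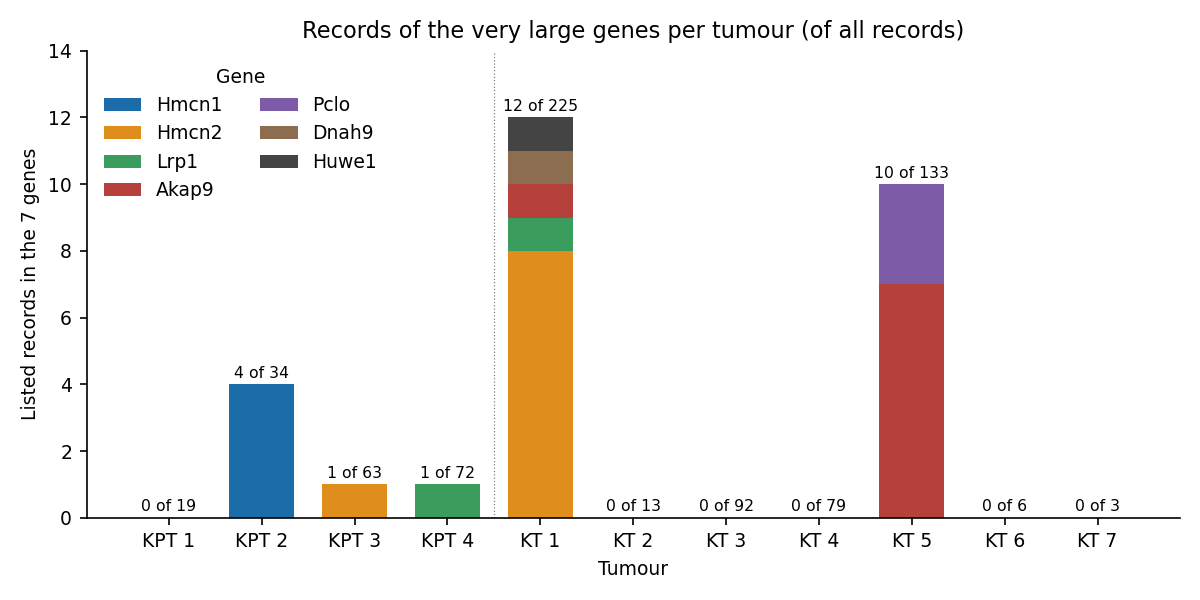
Bars give the number of records in each of the 7 genes per tumour (y axis, records; x axis, KPT tumours left and KT tumours right), and the text above a bar gives that number of all records of the tumour. KT tumours 1 and 5 hold 12 and 10 records, KPT tumours 2, 3 and 4 hold 4, 1 and 1, and the other 6 tumours hold 0.

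Of a tumour's own records, the 7 genes took 11.8% in KPT tumour 2 (4 of 34, 95% Wilson interval 4.67% to 26.6%), 1.59% in KPT tumour 3 (1 of 63) and 1.39% in KPT tumour 4 (1 of 72). In KT tumours they took 5.33% in tumour 1 (12 of 225, 3.08% to 9.09%) and 7.52% in tumour 5 (10 of 133, 4.14% to 13.3%). The intervals of KPT tumour 2 and of both KT tumours overlap. Records of 1 gene in 1 tumour are not independent, and the genes were chosen for having records. These intervals thus cover counting error only and do not serve to compare the tumours. Hmcn2 and Akap9 had the most records of all listed genes, 9 and 8, over 2 tumours each. Within a tumour other genes came as near: in KT tumour 1 Hmcn2 had 8 records and the next gene 7. In KT tumour 5 Akap9 and a further gene outside the 7 had 7 each.

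Depth at a listed site limits what could be listed at all. Median depth per tumour over all records was 38, 23, 11 and 13 reads in KPT tumours 1 to 4 and ran from 15 to 58 reads, with a median of 32, in the 7 KT tumours. The means were 21.2 ± 12.3 reads in KPT tumours (SD, n = 4) and 31.1 ± 15 in KT tumours (SD, n = 7). The difference of -9.89 reads did not exceed the variation among tumours (p = 0.294, exact permutation, two-sided, all 330 splits). The highest KT median, 58 reads, came from tumour 7 with only 3 records, and without that tumour the difference was -5.42 reads. Sites of the 7 genes had 12 to 67 reads with a median of 25.0, close to the 24.0 of all other genes.

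Of the 14 genes of the whole table with records in at least 2 tumours, 0 (0%) differed between KPT and KT tumours at an adjusted p of 0.05 by two-sided Fisher's exact test with Benjamini-Hochberg adjustment, and 0 (0%) passed unadjusted. Each of the 14 had records in 2 of the 11 tumours, for which the smallest possible exact p is 0.109, so this test could call no gene and says nothing on whether the genotypes differ. Of these 14, 3 belonged to the very large genes. Akap9 had records in 0 of 4 KPT and 2 of 7 KT tumours (exact p = 0.491, adjusted p = 0.859). Hmcn2 and Lrp1 each had records in 1 of 4 KPT and 1 of 7 KT tumours (exact p = 1 for both genes). The changes differed between the tumours in all 3 genes, and 0 positions of the whole table were listed in more than 1 tumour. Whether the authors removed shared variants is not given in the sources used here.

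The matrix gene Hmcn1 (chromosome 1, 150562500 to 150993652, build GRCm38, minus strand) had all its records in KPT tumour 2. They lay in exons 15, 42, 49 and 92 of 107, over 167 kb of the gene and 4025 residues of the protein. S749G was on 9 of 23 reads (39.1%), A2163P on 31 of 67 (46.3%), R2546Q on 17 of 38 (44.7%) and G4774R on 13 of 23 (56.5%). The pooled share was 46.4% of 151 reads (38.6% to 54.3%), and it lay inside the interval of each of the 4 records. Such intervals cover counting error only, since reads need not be independent molecules. No other gene of KPT tumour 2 had more than 2 records. Next to Hmcn1, at 1703 kb from S749G, came N121H in the collagen-modifying enzyme gene Colgalt2, on 16 of 37 reads (43.2%).

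Hmcn2 (chromosome 2, 31314255 to 31460738, plus strand) had 1 record in KPT tumour 3 and 8 in KT tumour 1. In KPT tumour 3, P240T in exon 5 was on 3 of 12 reads (25.0%, interval 8.89% to 53.2%). In KT tumour 1 the records lay in 8 exons, from exon 30 to exon 86 of 98, over 59.8 kb and 2833 residues. The lowest share there was that of E2146Q, on 11 of 41 reads (26.8%, 15.7% to 41.9%), and the highest that of T1840A, on 40 of 67 (59.7%, 47.7% to 70.6%), with a median of 45.0%. These intervals do not overlap, but they belong to the extremes of the 8 records, picked by their values, and the difference was not tested. The pooled share was 44.3% of 237 reads (38.1% to 50.7%), and 6 of the 8 intervals included it. V3243I and L3291P, 237 bases apart, were on 9 of 20 and 7 of 24 reads. The nearest records on either side in KT tumour 1 were Q154R of the membrane protein gene Gpr107, on 14 of 32 reads, and S602G of the kinase gene Abl1, on 14 of 25 reads. The 15 records of other genes in this stretch of chromosome 2 had 27.3% to 57.1% variant reads, with a median of 41.7%. The range in Hmcn2 was thus close to that of its surroundings.

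The receptor gene Lrp1 (chromosome 10, 127538157 to 127621148, minus strand) had 1 record per genotype, near opposite ends of the protein. In KPT tumour 4, P333H in exon 7 of 89 was on 4 of 13 reads (30.8%, 12.7% to 57.6%). In KT tumour 1, C4382R in exon 85 was on 43 of 60 reads (71.7%, 59.2% to 81.5%). The KPT change removes a proline and the KT change a cysteine, the residue that forms the disulfide bridges of this receptor family. C4382R stood above the 4 other records of its stretch of chromosome 10, which had 25.0% to 56.8% variant reads. The nearest of these were S173A of the Hedgehog pathway factor gene Gli1 on 6 of 24 reads and M232T of the zinc finger gene Zbtb39 on 21 of 37.

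Akap9 (chromosome 5, 3927736 to 4080204, plus strand) had 0 records in KPT tumours, 7 in KT tumour 5 and 1 in KT tumour 1. In KT tumour 5, 219 of 221 reads at the 7 sites carried the variant (99.1%, 96.8% to 99.8%), and no site was below 96.9%. F1119V was on 34 of 34 reads, Q1138K on 31 of 32, S1277N on 20 of 20, T1309I and S1311C on 21 of 21 each, C1353Y on 63 of 64 and S2370L on 29 of 29. The first 6 of these crowded into 235 residues and 12.4 kb, in exons 8, 9, 13 and 14, and S2370L followed 65.0 kb further on in exon 30. T1309I and S1311C, 6 bases apart in exon 13, were phased to the same copy by the caller and had the same 11 and 10 variant reads in the 2 read orientations. In KT tumour 1, by contrast, G3306A in exon 39 was on 17 of 33 reads (51.5%, 35.2% to 67.5%), an interval that does not reach those of KT tumour 5.

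Pclo (chromosome 5, 14514906 to 14863465, plus strand) had 0 records in KPT tumours and 3 in KT tumour 5. Q1050E in exon 4 was on 26 of 27 reads, L2297S on 14 of 14 and E2855D on 31 of 31, the last 2 in exon 5 of 25. Together 71 of 72 reads carried the variant (98.6%, 92.5% to 99.8%). The records covered 1805 residues but only 10.7 kb of the gene, since they lay in 2 neighbouring exons.

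**Figure D2:**
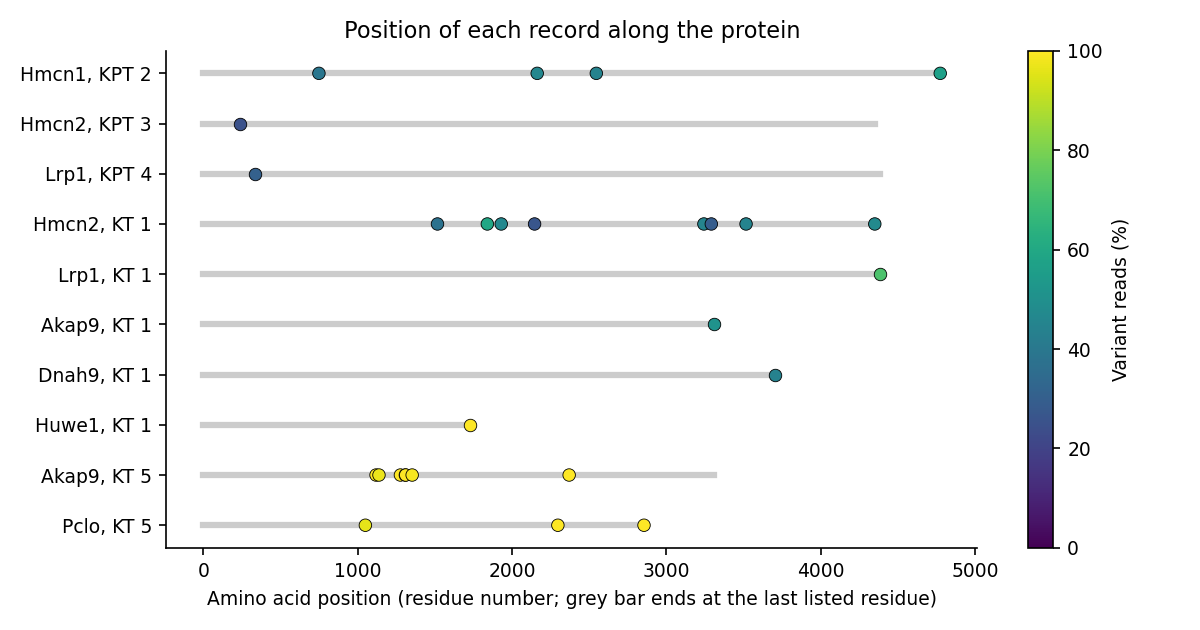
Each dot is a record at its residue number (x axis), 1 line per gene and tumour with KPT tumours on top; colour gives the share of variant reads in percent, and the grey bar ends at the last residue with a record. Records spread over 4025 residues of Hmcn1 and 2833 of Hmcn2, while 6 of the 7 Akap9 records of KT tumour 5 sit within 235 residues.

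Akap9 and Pclo shared their high shares with the chromosome around them. In KT tumour 5, 34 records lay between 3968775 and 48302385 of chromosome 5, 10 of them in Akap9 and Pclo, and 33 of the 34 had a listed allele fraction above 80%. At those 33 sites 5 of 850 reads were reference reads. The exception was a record of Armc10 on 3 of 10 reads. The 8 records further along, from 52762451 to 121572722, had 33.3% to 51.9% variant reads, and on the other chromosomes of this tumour 2 of 91 records had a listed fraction above 80%, and 4 of 91 a share of variant reads above 80%. Between Akap9 and Pclo stood Tex47, on 23 of 23 reads, 3.26 Mb after the last Akap9 record and 7.36 Mb before the first of Pclo.

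Dnah9 (chromosome 11, 65831324 to 66168581, minus strand) had 1 record, in KT tumour 1: the deletion of 1 base in exon 58 of 69, which shifts the reading frame at residue 3704. It was on 8 of 18 reads (44.4%, 24.6% to 66.3%) and was the 1 frameshift among the 28 records. No record of another gene lay within 2 Mb of it. Huwe1 (chromosome X, 151800785 to 151935417, plus strand) also had 1 record, S1728I in exon 41 of 83, on 26 of 26 reads of KT tumour 1 (interval from 87.1%). Like it, the 10 other records of KT tumour 1 from 73012574 onward on the X chromosome all had a listed fraction above 80%, with 1 reference read among 324 reads at the 11 sites. The 2 records before that point had 28.6% and 36.4% variant reads. The labels do not give the sex of the animals.

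**Figure D3:**
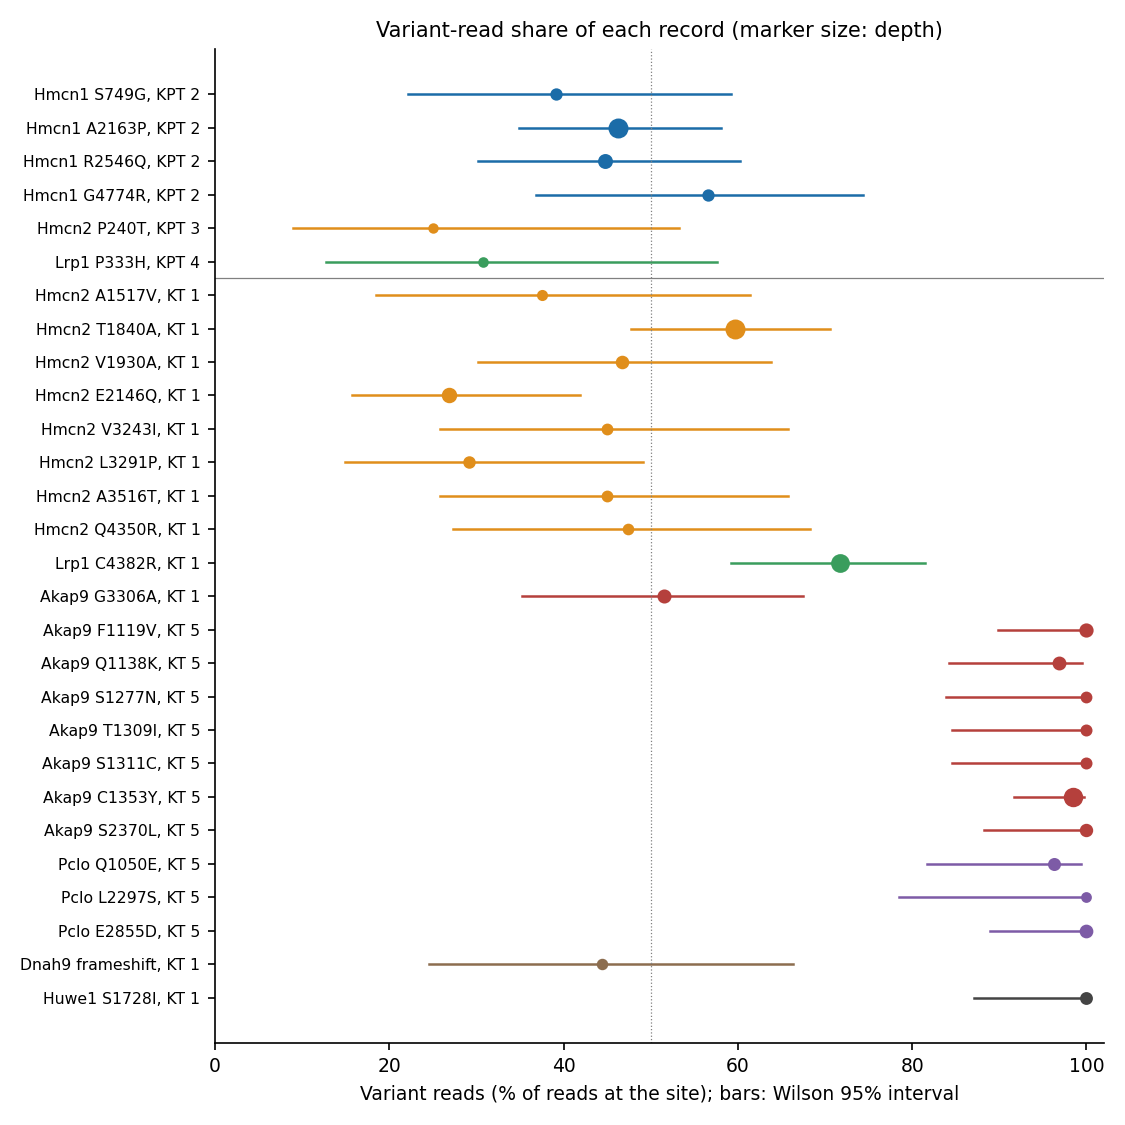
Each line is a record, with KPT tumours above the horizontal rule and KT tumours under it; dots give variant reads in percent of the reads at the site, dot size the depth, and bars the 95% Wilson interval. The 10 records of Akap9 and Pclo in KT tumour 5 and the Huwe1 record lie at 96.3% or more, and the other 17 run from 25.0% to 71.7%.

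The shares formed separate sets. In 11 of the 28 records the listed fraction was above 80%, from 92.3% to 97.0%, with 3 reference reads among 319, and the other 17 went up to 71.9%, with 274 reference reads among 524. All 11 were KT records, from tumours 5 and 1, and 0 of the 6 KPT records were among them. In other genes 78 of 711 records (11%) had a listed fraction above 80%, 2 of 182 in KPT tumours and 76 of 529 in KT tumours. The median share over the 28 records was 54.0%, against 45.5% in other genes, and without KT tumour 1 it was 97.7%. Within a tumour the medians of the 7 genes and of the other genes were 45.5% and 50% in KPT tumour 2, 45.8% and 48.0% in KT tumour 1, but 100% and 50% in KT tumour 5. All 28 records carried a heterozygous genotype code, whatever their share, so the code does not set the 11 high records apart. Of these 11, 8 had 0 reference reads.

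Variant reads numbered 3 and 4 in the KPT tumour 3 and 4 records, and at least 6 in the other 26. Both were C-to-A changes, Hmcn2 P240T from Ccc/Acc and Lrp1 P333H from cCc/cAc. In the same tumours C-to-A made up 50 of 61 substitutions in other genes of KPT tumour 3 (82.0%) and 38 of 69 in KPT tumour 4 (55.1%), at a median depth of 11 and 13 reads. The part of depth in these 2 calls was not tested. The other 2 C-to-A records, Akap9 Q1138K on 31 reads and Huwe1 S1728I on 26, came from KT tumours 5 and 1.

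**Figure D4:**
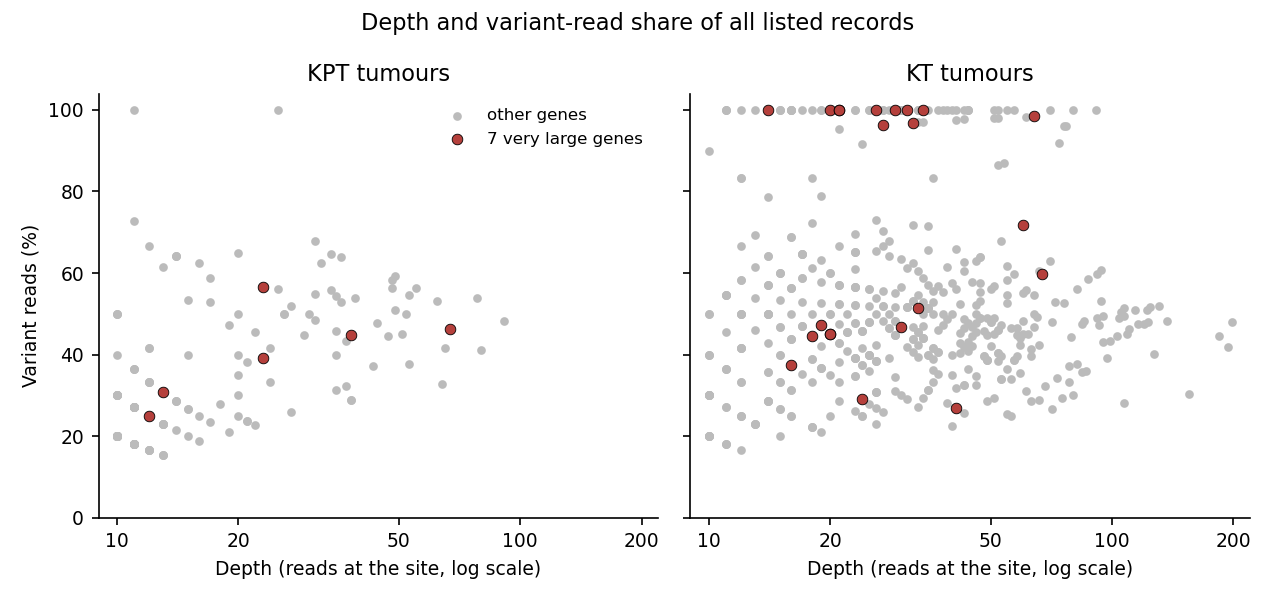
Every listed record is drawn by depth (x axis, reads, log scale) and share of variant reads in percent (y axis), KPT tumours left and KT tumours right, with the 7 very large genes in red and other genes in grey. The 2 red points of KPT tumours 3 and 4 lie at 12 and 13 reads, and 11 red points of KT tumours lie at 96.3% or more.

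Substitutions in the 7 genes comprised 9 C-to-T, 7 T-to-C, 5 C-to-G, 4 C-to-A, 1 T-to-A and 1 T-to-G change, strands folded together. Transitions were 16 of 27 (59.3%), against 410 of 683 in other genes (60.0%). On the BLOSUM62 scale, on which a negative score marks an exchange seen less often between related proteins than by chance, 13 of 27 missense changes scored below 0 (48.1%), against 281 of 675 in other genes (41.6%). In KPT tumours this was 4 of 6, against 90 of 175 in other genes (51.4%), and in KT tumours 9 of 21 (42.9%), against 191 of 500 (38.2%). The lowest score, -3, belonged to Hmcn2 L3291P and Lrp1 C4382R, and the highest, 3, to Hmcn2 V3243I. Cysteine was lost in Lrp1 C4382R and Akap9 C1353Y and gained in Akap9 S1311C. Proline was lost in Hmcn2 P240T and Lrp1 P333H and gained in Hmcn1 A2163P and Hmcn2 L3291P. These counts were not tested.

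Most records of the 7 genes had close company. With a run defined as at least 3 positions of 1 tumour no more than 2 Mb apart, 25 of 28 records lay in runs (89.3%, 72.8% to 96.3%), against 487 of 711 in other genes (68.5%). Records of the same run are not independent, so this interval covers counting error only. Within tumours, with the 7 genes before the others, it was 4 of 4 and 23 of 30 in KPT tumour 2. It was 1 of 1 and 5 of 62 in KPT tumour 3, and 0 of 1 and 24 of 71 in KPT tumour 4. In KT tumour 1 it was 10 of 12 and 178 of 213, and in KT tumour 5 it was 10 of 10 and 98 of 123. The run of KPT tumour 3 held 3 records and was a run only with the Hmcn2 record. The 3 records outside runs were Lrp1 P333H, Akap9 G3306A and the Dnah9 frameshift. A very large gene can meet this definition alone: the Akap9 run of 77.5 kb and the Pclo run of 10.7 kb in KT tumour 5 held no other gene, and 7 of all 63 runs were of this kind. With runs of at least 3 genes in place of 3 positions, 15 of 28 records were in runs (53.6%), against 456 of 711 in other genes (64.1%), so that the order of the 2 shares turned round. Under that definition KPT tumour 2 had 4 of 4 and 23 of 30 records in runs, KT tumour 1 had 10 of 12 and 164 of 213, and KT tumour 5 had 0 of 10 and 84 of 123.

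**Figure D5:**
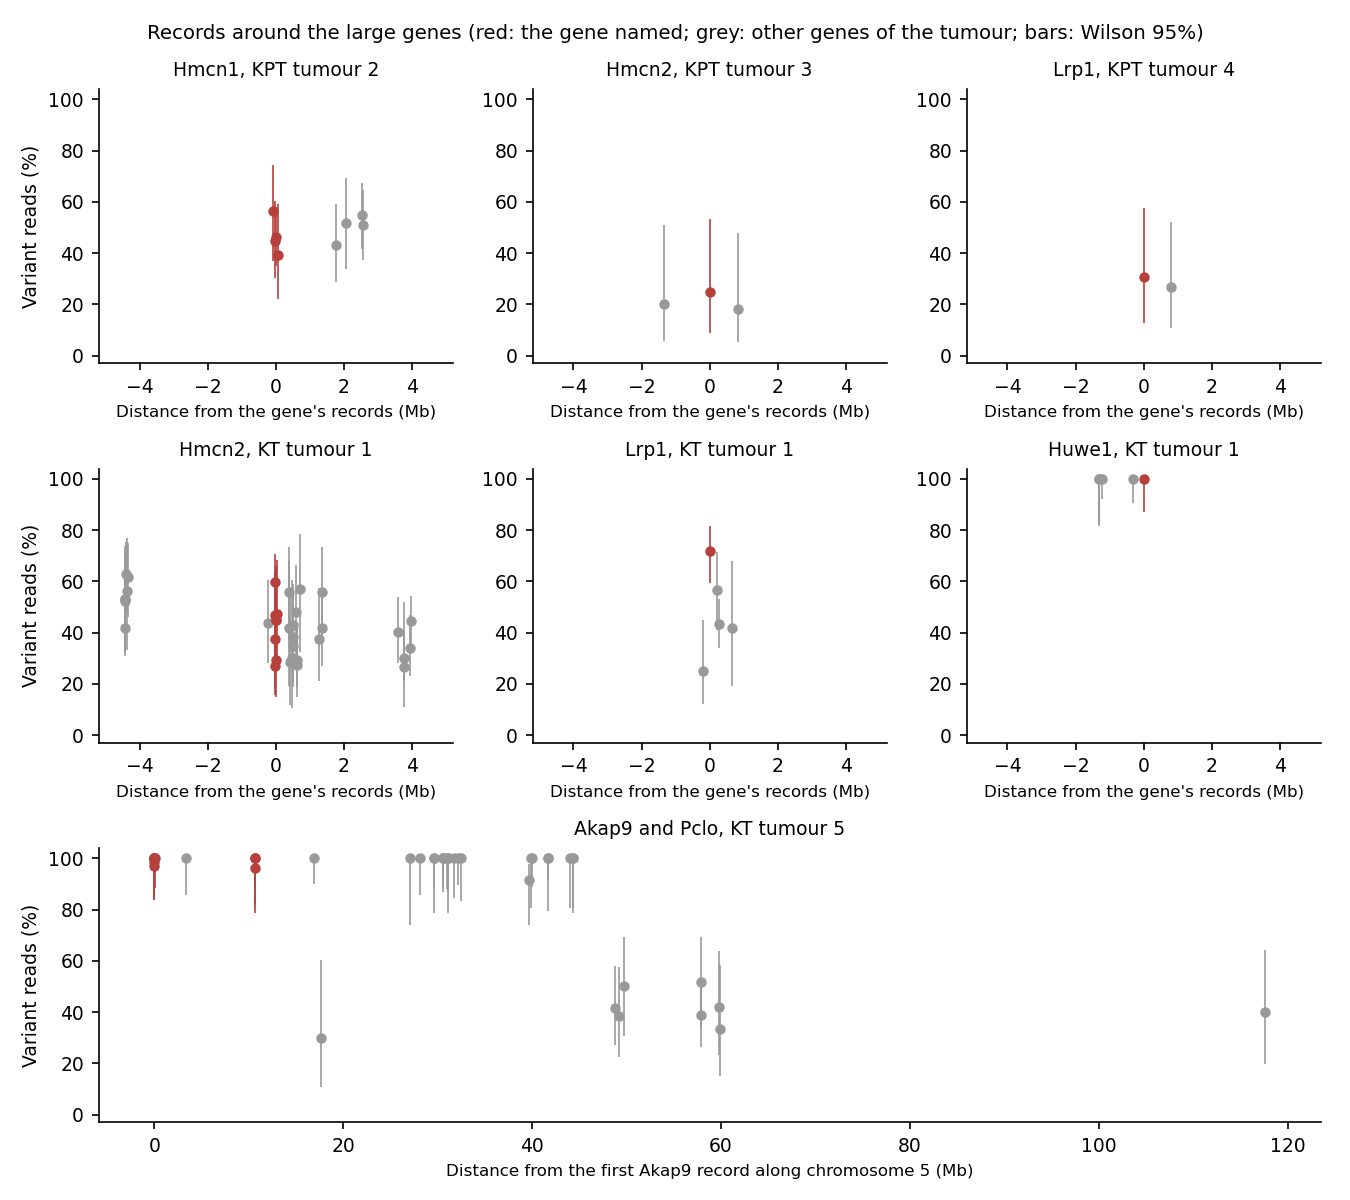
Dots give the share of variant reads in percent (y axis) of each record by distance along the chromosome in Mb (x axis) from the records of the gene named above the panel, with 95% Wilson bars, that gene in red and other genes of the same tumour in grey. In the lowest panel the Akap9 and Pclo records of KT tumour 5 lie in a stretch where 33 of 34 records have a listed fraction above 80%, and the 8 records beyond it lie between 33.3% and 51.9%.

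Other very large genes were also counted for presence in the table. Of 43 further genes on a list of very long genes, 3 had a record (6.98%, 2.40% to 18.6%), against 533 of 21850 other RefSeq coding genes (2.44%). The 43 were what remained of 50 genes once the 7, chosen for having records, were taken out. That removal lowers their share, which was 20% over all 50, so neither share is a fair reference for long genes. Among the 3 was Mdn1, a ribosome assembly factor gene, with E4667D in KPT tumour 3 on 3 of 10 reads. Another was the axonemal dynein gene Dnah5, with A4326S in KT tumour 5 on 14 of 40 reads. Taking instead all other genes with a record at residue 3000 or beyond added Dnah17, Hspg2, Kmt2a, Lyst and Eppk1. The list did not hold these added genes, so the shares above do not part all very long genes from the rest. The 8 other genes with a record at residue 3000 or beyond had 15 records in 7 tumours. These records had 18.2% to 64.3% variant reads and 0 were above 80%, and 9 of the 15 lay in runs. Dnah5 A4326S, at 35.0% in the tumour where Akap9 and Pclo stood near 100%, lies on chromosome 15.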

How the data were processed

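Exome libraries of 11 tumours were made with a linked-read kit and a mouse all-exon bait set, per the labels' protocols. Builds mm10 and GRCm38 and the tools HISAT2 2.0.4 and GATK appear in the submitters' processing notes, with no role given; caller, filters and any normal tissue are not given in the sources used here. Per the file headers, the deposited depth is in counts of reads and the deposited allele fraction is a fraction, printed here in percent. Positions, codons, marks and the paired reads for reference and variant stand in further deposited columns, of other units. The lowest depth listed was 10 reads, the fewest variant reads 2 and the lowest listed fraction 25%; the total depth of a library is unknown.

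Tumours were grouped by genotype. Shares are variant reads over all reads of a site. For the 7 genes, listed fraction and read share differed by a median of 2.85 and at most 6 points. All 28 positions lay inside the RefSeq span (GRCm38.p6) of their gene, and all 27 codons translated as listed and fitted the residue number. All 28 records had a mappability entry, with 0 marked as poor.

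The members, lists, runs and residue limits were chosen with earlier results of these data known. Named besides the members were other genes with a record at residue 3000 or beyond and the nearest listed neighbours within 2 Mb; Tex47, Armc10 and the stretches of chromosomes 5 and X were chosen after their values were seen. Some items that these rules cover, and an engineered allele, are not reported here. Protein lengths were not in the tables used, so the planned length minimum was replaced by a list of 50 long genes, written by hand. Depth was compared by exact permutation, genes by Fisher's exact test over the whole table; both were tested on simulated data. Alternatives left out each tumour, raised the minimum for variant reads (5), depth (20 reads) and listed fraction (40%), left out poorly mappable records or runs, changed run limits (1 and 5 Mb), took means, tested all listed genes, or paired tumours by number. Software was Biopython 1.88, Matplotlib 3.10.9, SciPy 1.17.1, pandas 2.3.3, NumPy 2.4.6 and Python 3.11.15.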

Additional observations from a re-analysis of the deposited data

Results flagged for a closer look

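The 7 very large genes took 11.8% of the records of KPT tumour 2, which stood apart from the 0%, 1.59% and 1.39% of KPT tumours 1, 3 and 4: its gap to the next tumour was 0.865 of the range of the group, above Dixon's limit of 0.829 for 4 tumours. All 4 records behind it were in Hmcn1, which is among the 7 genes through these records alone, so the value describes the choice of genes as well as the tumour and supports nothing. Chance alone marks about 1 group in 20, and 8 groups of values were examined.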

How the results depend on the processing

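Of 111 recomputed values, 100 stayed within the limits set for them: the same direction and side of the threshold for the depth difference, whatever its size, within 1.5 times for counts, and within the interval or 1 SD for shares. Many of the 100 could not have moved, so the total is no measure of stability. The gene test gave 14 of them. Leaving out a tumour with 0 records in the 7 genes cannot change their counts, run share or median share. The number of tumours with a record in the 7 genes, 5, became 3 with at least 5 variant reads, 3 at a depth of at least 20 reads, 3 at a listed fraction of at least 40% and 3 without KPT tumours 3 and 4, a choice added after seeing the data. The share of further long genes with a record, 6.98%, became 2.33% with 20 or more reads and 2.33% with a listed fraction of 40% or more, and was 20% over all 50 genes of the list, which include the 7 chosen for having records. The share of records in runs became 53.6% with runs of at least 3 genes. Leaving out each tumour gave 16 to 28 records and a median variant-read share of 45.0% to 97.7%. The depth difference ranged from -15.5 to -5.42 reads (exact permutation p from 0.15 to 0.575), and was -5.80 with runs left out. The gene test called 0 genes in each setting, which shows no stability, since a gene in 2 tumours cannot go below an exact p of 0.109 (0.0667 without a KPT tumour). With the replicate block, tumours of the same number paired, the depth difference was -9 reads (exact p = 0.5, where 4 pairs cannot go below 0.125) and 0 genes were called; the numbers are not stated to pair animals. With runs left out no gene had records in 2 tumours, so that test gave no value, and protein length minimums of 2000 and 4000 residues were not run. At 12 and 13 reads, the 2 records of KPT tumours 3 and 4 fix their shares only to within wide intervals. Variants with a listed fraction under 25% could not be seen, although read shares of listed records went lower.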
